A study of Mus musculus with 20 samples.

Results

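The regions described here were stretches of the mouse genome that carried 5-formylcytosine (5fC) peaks in both *Tdg* null carcasses and in no peak of the other *Tdg* null tissues. Autosomal stretches of 100 bp bins were kept when both null carcass libraries covered them, when no peak of the 4 null hindbrains, the 2 null hearts or the null liver of embryo i1 touched them, and when they were at least 300 bp long. This left 20059 regions covering 12.4 Mb, which was 14.7% of the 136647 null carcass stretches of that length. The regions were selected on the peaks of the null libraries, so their presence in null carcass and absence elsewhere in the null embryos is the rule and not a finding.

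5fC pull-down sequencing had been carried out on hindbrain, heart, liver and carcass of WT and *Tdg* null E11.5 embryos, giving 20 libraries from 12 embryos of 6 litters. There were 4 hindbrains of each genotype from embryos of litters A, O, Q and Z, and 2 hearts, 2 livers and 2 carcasses of each genotype. Heart, liver and carcass came from the same embryos, which were i1 and i5 for *Tdg* null and i6 and i9 for WT, with i1 and i6 from 1 litter and i5 and i9 from another. The *Tdg* null allele lacks the sequence coding for the catalytic domain, replaced by a neomycin cassette, in every cell of the embryo, and the WT embryos were from the same heterozygous intercrosses. The carcass is what was left of the embryo after the other 3 tissues were taken, a mixture that includes limb buds, somites, body wall, gut tube, face, and the rest of the central nervous system.

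The files hold only the positions of peaks. A peak present in carcass as a whole could mark many cells weakly or few cells strongly, and these cannot be told apart. Expression was not part of the data used here, so the tissue labels could not be checked against marker transcripts. Depth is unknown from these files. The number of autosomal peaks ranged from 1507 to 41464 in the 10 WT libraries. It ranged from 100553 to 251271 in the 9 null libraries that were used or avoided in choosing the regions. The null liver of embryo i5 held 206 autosomal peaks and was not part of the rule. The study set aside 1 null liver as of poor quality without naming the embryo. None of the 20059 regions lay under its peaks. The 2 carcasses of a genotype came from separate embryos. The p-values of the exact permutation tests below come from reassigning WT libraries between carcass and the other tissues. The spread they use holds differences between tissues, embryos and libraries together, and WT heart and liver share their embryos with WT carcass.

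Cytosine methylation at CpG is oxidised by the TET enzymes to 5-hydroxymethylcytosine, then to 5fC, then to 5-carboxylcytosine. Thymine DNA glycosylase, the product of *Tdg*, cuts out the last pair of these bases, and base excision repair restores an unmodified cytosine. Without the enzyme this removal is lost and 5fC builds up, although it can still be diluted when DNA is copied, and enhancers in active use are among the sites known for it. HOX proteins set position along the trunk and limbs and often bind DNA together with the TALE homeodomain proteins PBX and MEIS.

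Sequences of 5 regions show the letters TGATTNAT, the core bound by PBX with a HOX partner, searched on both strands, because of the 14 motifs searched this one was the most frequent in the regions relative to the genome. The first 4 are among the 5 longest regions with 2 or more such matches in their central 300 bp that lay under peaks of both WT carcasses and of no other WT library, and the other one, in an intron of *Stk32a*, is named only. The last, in *Foxp2*, was named from the gene lists below. Capitals mark the PBX-HOX letters, and each line gives the plus strand of mm9 (NCBIM37) from 5′ to 3′.
Tshz3 downstream chr7:37752101-37752400: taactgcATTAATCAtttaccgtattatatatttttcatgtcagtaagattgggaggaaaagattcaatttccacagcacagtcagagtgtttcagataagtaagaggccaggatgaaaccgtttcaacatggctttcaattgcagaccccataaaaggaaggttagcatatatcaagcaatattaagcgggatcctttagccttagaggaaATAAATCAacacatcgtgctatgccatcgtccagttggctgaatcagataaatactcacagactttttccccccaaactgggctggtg
Spock1 intron chr13:57887351-57887650: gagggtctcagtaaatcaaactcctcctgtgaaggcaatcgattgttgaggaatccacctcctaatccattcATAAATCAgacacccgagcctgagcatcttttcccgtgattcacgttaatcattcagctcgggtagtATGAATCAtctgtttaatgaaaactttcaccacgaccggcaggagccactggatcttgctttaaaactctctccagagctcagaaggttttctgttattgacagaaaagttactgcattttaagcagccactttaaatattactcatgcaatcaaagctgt
B230120H23Rik intron chr2:72144001-72144300: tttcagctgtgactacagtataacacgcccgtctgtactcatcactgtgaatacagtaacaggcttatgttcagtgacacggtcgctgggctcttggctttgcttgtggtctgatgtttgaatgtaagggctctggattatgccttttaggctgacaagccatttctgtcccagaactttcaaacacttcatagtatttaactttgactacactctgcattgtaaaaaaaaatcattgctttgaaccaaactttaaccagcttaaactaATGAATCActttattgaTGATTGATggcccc
Plcb4 intron chr2:135595501-135595800: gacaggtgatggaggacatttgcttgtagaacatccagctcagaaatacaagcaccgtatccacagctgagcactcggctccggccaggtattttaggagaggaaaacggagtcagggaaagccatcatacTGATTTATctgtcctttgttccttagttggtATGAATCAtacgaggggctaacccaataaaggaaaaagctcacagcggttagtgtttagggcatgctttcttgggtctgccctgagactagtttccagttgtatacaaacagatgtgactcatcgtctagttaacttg
Foxp2 intron chr6:14862051-14862350: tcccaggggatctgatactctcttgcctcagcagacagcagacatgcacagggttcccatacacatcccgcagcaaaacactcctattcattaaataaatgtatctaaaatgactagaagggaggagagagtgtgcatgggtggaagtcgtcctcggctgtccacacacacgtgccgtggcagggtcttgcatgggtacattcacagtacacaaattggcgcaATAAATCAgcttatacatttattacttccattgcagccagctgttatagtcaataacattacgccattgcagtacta

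The region beside *Tshz3*, a zinc finger gene, was intergenic, 269113 bp downstream of that start, and 1300 bp long (chr7:37751601-37752900). The *Spock1* region (chr13:57887001-57888000), the *B230120H23Rik* region (chr2:72143701-72144600) and the *Plcb4* region (chr2:135595201-135596100) were intronic and 1000, 900 and 900 bp long. The *Foxp2* region (chr6:14861901-14862500) was 600 bp long, 8743 bp downstream of the nearest *Foxp2* start. All 5 lay under peaks of both WT carcasses and of no other WT library. WT carcass i6 covered 600 bp of the *Tshz3* region and i9 covered 500 bp. For *Foxp2* both WT carcasses covered 400 of the 600 bp.

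A second pair of sequences comes from the *Hoxb* cluster, which held more of the regions than any other *Hox* cluster. Capitals mark CpG, the dinucleotide that carries most cytosine methylation and so most of its oxidised forms. The strand and build are as above.
Hoxb7 to Hoxb6 chr11:96152201-96152500: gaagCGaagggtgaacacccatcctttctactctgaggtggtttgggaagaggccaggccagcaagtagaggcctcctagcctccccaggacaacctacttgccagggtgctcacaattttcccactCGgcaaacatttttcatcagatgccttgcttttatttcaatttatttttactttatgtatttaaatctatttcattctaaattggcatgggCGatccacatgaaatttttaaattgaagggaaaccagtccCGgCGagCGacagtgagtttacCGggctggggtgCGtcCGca
Hoxb2 downstream chr11:96219151-96219450: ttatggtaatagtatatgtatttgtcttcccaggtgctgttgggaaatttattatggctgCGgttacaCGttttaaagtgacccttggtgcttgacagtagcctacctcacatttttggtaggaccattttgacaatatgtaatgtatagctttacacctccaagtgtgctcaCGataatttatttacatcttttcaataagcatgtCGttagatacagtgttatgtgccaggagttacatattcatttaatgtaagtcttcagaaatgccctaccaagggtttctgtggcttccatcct

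The first lies in an exon of the transcript *0610040B09Rik*, 1440 bp upstream of a *Hoxb6* start, within a region of 700 bp (chr11:96152001-96152700) that held 17 CpGs. The second is intergenic, 6354 bp downstream of a *Hoxb2* start, within a region of 1400 bp (chr11:96218601-96220000) that held 9 CpGs. Neither lay under a peak of any WT library. The nearest peak of another null tissue was 42900 bp from the first and 8300 bp from the second.

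PBX-HOX letters were found in the central 300 bp of 3203 of the 20059 regions, which was 16.0%. The share was 8.25% in the 116588 null carcass stretches that also touched a peak of another null tissue, which are called shared stretches here. It was 3.50% in the regions found only in null hindbrain, 2.33% in those only in null heart and 5.97% in those only in null liver. Of all 300 bp tiles of the autosomes, 5.48% held a match. The regions only in null carcass thus held these letters 2.91 times as often as the tiles and 1.94 times as often as the shared stretches. For the other 13 motifs searched these ratios ran from 0.726 to 2.02 and from 0.459 to 1.06.

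The ratio to the tiles differed with the free base of the letters. With T at that base, a form that HOX proteins of the trunk favour with PBX, the share was 8.23% of the regions against 1.85% of tiles, a ratio of 4.44. With A it was 3.15% against 1.26%, and with G, a form favoured by anterior groups, 2.98% against 1.21%. With C, a form that also contains the AP-1 letters TGANTCA, it was 2.29% against 1.35%. The same letters in reversed order, TANTTAGT, were in 3.32% of the regions and 4.19% of tiles. A homeobox core alone, TAATTA, was in 11.1% of the regions and 10.5% of tiles. The letters of MEIS, TGACAG, were in 25.4% of the regions, 18.4% of tiles and 28.1% of the shared stretches.

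The WT libraries, which had no part in choosing the regions, allowed the letters to be counted in their own autosomal peaks. The letters were in the central 300 bp of 9.89% of the peaks of WT carcass i6 and 9.67% of those of i9. In the WT hindbrains they were in 4.55%, 5.55%, 6.37% and 4.31% of peaks for embryos 2A8, O3, Q3 and Z3. The WT hearts had 3.57% (i6) and 4.98% (i9), and the WT livers 4.44% (i6) and 4.66% (i9). Both WT carcasses were above every other WT library. The mean was 9.78% ± 0.16 (SD, n = 2) in WT carcass and 4.80% ± 0.85 (SD, n = 8) in the others, a difference of 4.97 percentage points. A two-sided exact permutation test over the 45 assignments gave p = 0.0222, the smallest this design allows, and p = 0.156 after Benjamini-Hochberg adjustment over the 14 motifs searched. With the embryo as a block, over carcass, heart and liver of the same 2 WT embryos, the difference was 5.36 points with exact p = 0.111, the smallest that 9 assignments allow. This comparison was chosen after the share in the regions had been seen. It describes all WT carcass peaks, not the regions alone.

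Each form of the free base also separated the WT carcasses from the other WT libraries, with exact permutation p = 0.0222 for all 4. With T the share was 4.77% in WT carcass i6 and 4.76% in i9, and between 1.19% and 2.01% in the other 8 WT libraries. The means of WT carcass and the others were 1.93% and 1.12% with A, 1.77% and 1.19% with C, and 1.71% and 1.08% with G. The reversed letters gave 2.38% ± 0.09 (SD, n = 2) in WT carcass and 2.24% ± 0.45 (SD, n = 8) elsewhere, with exact p = 0.667 over the 45 assignments. The null libraries were used by the rule and are given as a description. PBX-HOX letters were in 9.17% and 9.12% of the peaks of null carcasses i1 and i5, and in 3.41% to 6.99% of those of the 7 other null libraries of the rule.

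**Figure D1:**
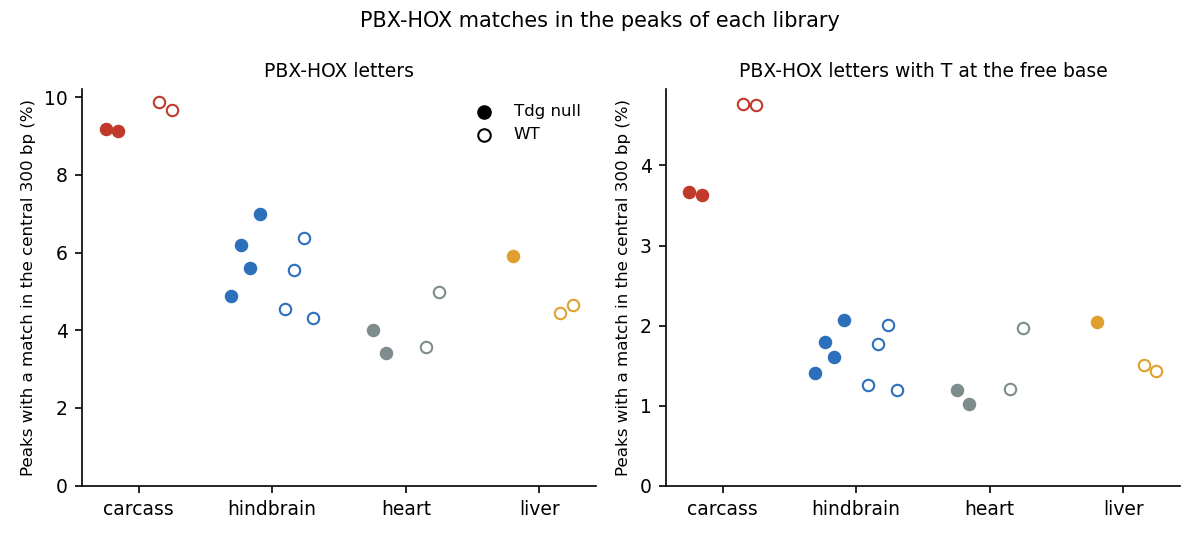
Share of autosomal peaks of each library with PBX-HOX letters in the central 300 bp, in per cent, with any free base (left) and with T at the free base (right). Each point is 1 library, filled for *Tdg* null and open for WT, without the null liver i5. The 4 carcass libraries lie between 9.12% and 9.89% on the left, above every other library.

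Other letters were more frequent in some of the sets and less frequent in others. GATA letters, AGATAA, bound by factors of heart and blood, were in 13.9% of the regions, 10.7% of regions only in null hindbrain, 28.8% of regions only in null heart and 36.9% of those only in null liver, against 19.1% of tiles. An E-box of bHLH factors, CAGATG, was in 32.5% of the regions, 30.7% of shared stretches and 21.8% of tiles. It was in 26.5%, 22.8% and 22.6% of regions only in null hindbrain, heart and liver. Another E-box, CAGCTG, was in 21.1% of the regions, 24.7% of shared stretches and 10.9% of tiles. SOX letters, ACAATG, were in 16.3% of the regions and in 23.3%, 14.2% and 13.75% of those only in null hindbrain, heart and liver, against 18.2% of tiles. The GC box of promoters, GGGCGG, was in 3.76% of the regions, 6.58% of shared stretches and 2.94% of tiles. In the peaks of WT libraries, CAGATG was in 30.5% ± 0.47 (SD, n = 2) for carcass and 26.3% ± 2.10 (SD, n = 8) for the others, exact permutation p = 0.0444 and adjusted p = 0.156. The same exact permutation p and adjusted p were found for the TEAD letters GGAATG, at 20.2% for carcass and 16.6% for the others, and for the GC box, at 5.93% and 8.21%. AGATAA was in 14.1% ± 0.47 (SD, n = 2) and 20.3% ± 9.73 (SD, n = 8), exact permutation p = 0.489. A match is a description of the letters in a window, and its absence says nothing of a factor.

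The next question was whether WT embryos, whose TDG is intact, also carried 5fC at the regions, and in which tissue. Peaks of WT carcass i6 overlapped 1197 of the 20059 regions (5.97%, 95% exact interval 5.64 to 6.30) and those of i9 overlapped 1148 (5.72%, 5.41 to 6.05). Among all null carcass stretches the corresponding background was 16.6% for i6 and 15.2% for i9. Peaks of WT hindbrains 2A8, O3, Q3 and Z3 overlapped 0, 16, 125 and 1 regions. The WT hearts overlapped 15 (0.075%, i6) and 17 (0.085%, i9), against 0.741% and 1.69% of all null carcass stretches. The WT livers overlapped 83 (0.414%, i6) and 0 (i9), against 3.61% and 0.353%. The 0 of 20059 allows a share of up to 0.0150% at 3 counts of the total, or 0.0184% as the upper end of the 95% exact interval, and intervals and limits cover counting error only. The WT carcasses therefore reached more of the regions than any other WT library, and less often than they reached null carcass stretches as a whole.

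WT libraries differ in how much of the genome their peaks cover, so the bases of the regions under peaks were divided by the bases expected from that cover, on a log2 scale with 1 bin of 100 bp added to both. WT carcass i6 stood at 2.21 and i9 at 2.41. The WT hindbrains stood at -5.58 (2A8), -1.98 (O3), -0.25 (Q3) and -3.51 (Z3), the WT hearts at -1.62 (i6) and -1.13 (i9), and the WT livers at -0.56 (i6) and -5.51 (i9). Both carcasses were above expectation and the other 8 libraries below it. The mean was 2.31 ± 0.14 (SD, n = 2) in WT carcass and -2.52 ± 2.11 (SD, n = 8) elsewhere, a difference of 4.83, with a two-sided exact permutation p = 0.0444 over 45 assignments. The rule kept the regions clear of null peaks of the other tissues, and how far this sets the low values in the WT libraries of those tissues was not tested. WT hindbrain 2A8 and WT liver i9 overlapped no region, so their values are set by the added bin and the cover of the library, and with 10 bins added the difference was 3.82 (exact permutation p = 0.0222). Carcass, heart and liver of WT came from the same 2 embryos, and with the embryo as a block the difference was 4.52 with exact p = 0.111, the smallest that 9 assignments allow. Leaving out any 1 of WT hindbrains O3 and Z3, WT hearts i6 and i9 and WT liver i9 gave exact p = 0.0556.

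Regions found only in each of the other null tissues were set beside them within each WT library. They needed both null libraries for heart, at least 2 of 4 for hindbrain and the single one used for liver, so the sets were not equally strict. The log2 value of the regions minus the mean of the 3 other sets was 1.68 in WT carcass i6 and 1.79 in i9, and between -8.47 and -0.36 in the other 8 WT libraries. The groups did not overlap, with a difference of 5.40 and exact permutation p = 0.0222 over 45 assignments, the smallest this design allows. With the embryo as a block the difference was 6.47 with exact permutation p = 0.111. Leaving out any 1 of WT hindbrains 2A8 and Z3 and WT hearts i6 and i9 gave exact permutation p = 0.0556. Each set was chosen to carry null peaks of its own tissue and to avoid those of the others, and how far that choice sets this difference was not tested. WT carcass stood at 2.18 and 2.37 on regions only in null hindbrain, against 4.34 to 6.63 in the 4 WT hindbrains. Those regions were also above expectation in WT heart (5.08 and 4.88) and WT liver (2.52 and 5.09), and they include stretches of up to 34000 bp. The WT carcasses were thus about as high on them as on the regions only in null carcass. On regions only in null heart the WT carcasses stood at -0.86 and -0.82, and on those only in null liver at 0.26 and 0.31.

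**Figure D2:**
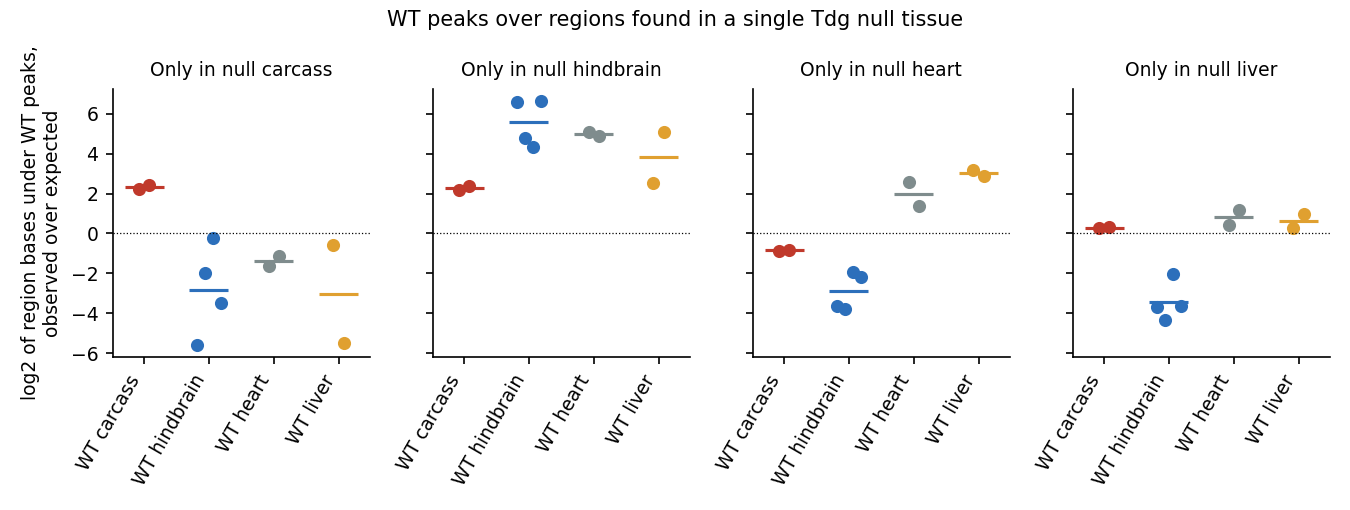
log2 of the bases of each region set under the peaks of a WT library over the bases expected from the genome share of those peaks. Points are libraries (carcass, heart and liver n = 2, hindbrain n = 4), lines are means, and the dotted line is expectation. In the first panel both WT carcasses are above 2 and the other 8 WT libraries are below 0.

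Peaks of both WT carcasses met at 601 regions, 2.996% of the 20059 (95% exact interval 2.76 to 3.24), against 9.99% of all null carcass stretches. At least 1 WT carcass reached 1744 regions (8.69%), against 21.9% of all null carcass stretches. The 601 regions were 50.2% of those reached by i6 and 52.4% of those reached by i9. Of the 601 regions, 572 were under no other WT library, and 18124 regions (90.4%) were under no WT peak at all. The 191 regions under another WT library and no WT carcass were 0.952% of the total.

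WT carcass peaks were centred on the regions. Peaks of i6 covered the centre of 5.60% of them and those of i9 covered 5.34%. At 600 bp before the centre the level in WT carcass i6 and WT carcass i9 was 0.399% and 0.289%, and at 4 to 5 kb from the centre it was 1.76% and 1.53% on average. WT hindbrain Q3 covered 0.553% at the centre, 0.0698% at 400 bp to 1 side and 0.941% at 4 to 5 kb, so it also had a small rise at the centre but a higher level away from the regions. WT liver i6 had 0.289% at the centre and 0.385% at 4 to 5 kb.

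**Figure D3:**
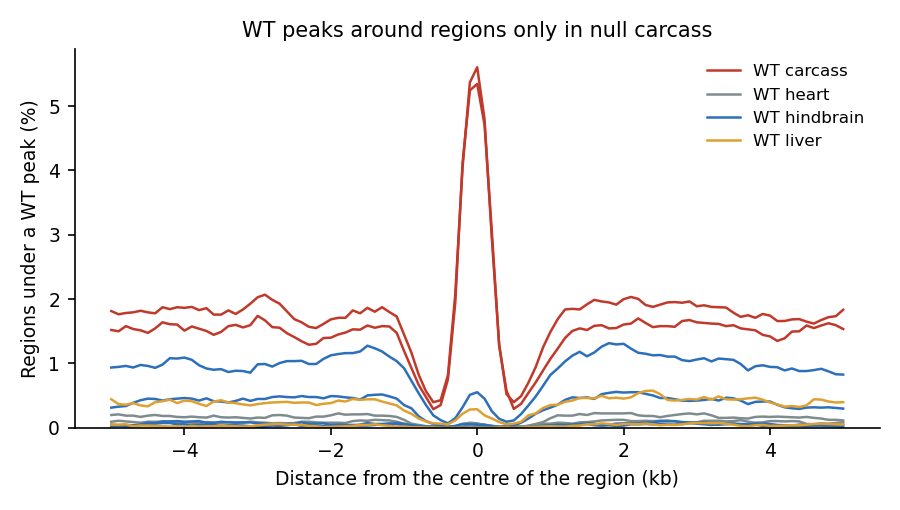
Share of the 20059 regions under a peak of each WT library, in per cent, by distance from the centre of the region in kb, with 1 line per library. The 2 WT carcass lines rise to 5.60% and 5.34% at the centre, and the other 8 stay below 1% there.

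Longer regions were more often under WT carcass peaks. No region of 300 to 400 bp out of 4013 was under both WT carcasses, which allows up to 0.0919% by the 95% exact interval. The share was 1.54% at 500 to 600 bp, 6.35% at 700 to 900 bp and 8.94% at 1000 bp or more. Shared stretches in these length classes gave 0.0156%, 1.79%, 11.2% and 20.5%, and the last class reached 3900 bp for the regions and 8400 bp for the shared stretches. The 95% exact intervals were 1.30 to 1.81 and 1.64 to 1.94 at 500 to 600 bp, and 5.68 to 7.07 and 10.8 to 11.5 at 700 to 900 bp. They cover counting error only, regions are not replicates, and the difference between the sets was not tested. The regions were shorter, with a median of 600 bp (quartiles 500 and 700) and 7.98% at 1000 bp or more, against 800 bp and 34.2% for shared stretches. At the length limit, 974 regions measured 300 bp, and 652 stretches of 200 bp that otherwise met the rule lay just outside it.

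**Figure D4:**
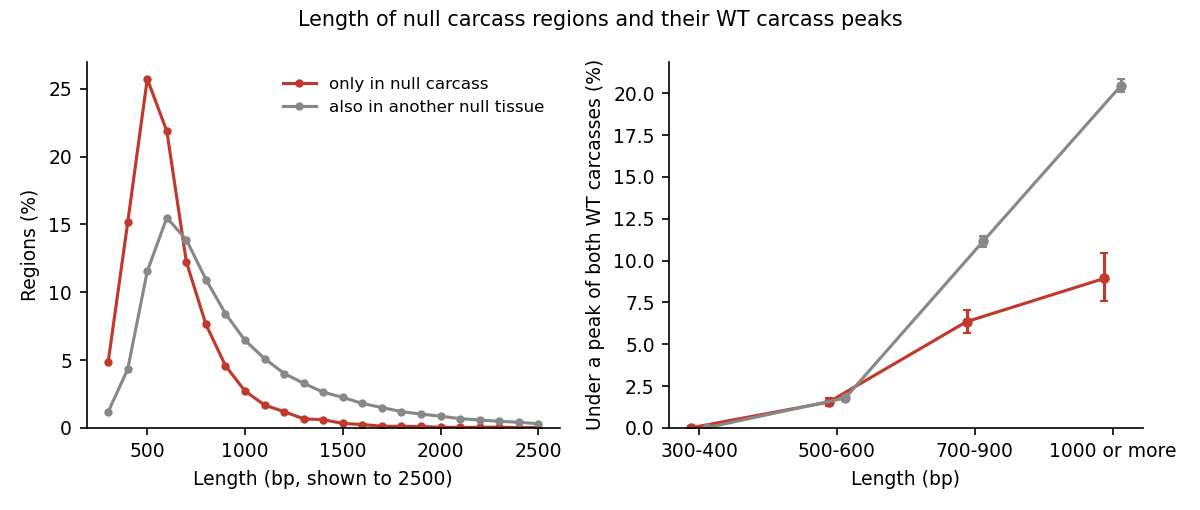
Left, lengths of the regions only in null carcass and of null carcass stretches also touched by another null tissue, as per cent of each set per 100 bp step. Right, share of each set under peaks of both WT carcasses by length, with 95% exact binomial intervals, rising to 8.94% and 20.5% at 1000 bp or more.

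Regions under both WT carcasses differed from the rest in several measures. PBX-HOX letters were in 138 of the 601 (23.0%, 95% exact interval 19.7 to 26.5) and in 15.4% (14.9 to 16.0) of the 18315 regions under no WT carcass. With T at the free base the shares were 16.6% (13.7 to 19.9) and 7.65% (7.27 to 8.04). The other 3 bases gave 3.16%, 2.16% and 2.50% for A, C and G, against 3.15%, 2.26% and 3.01%. Nuclear receptor letters, AGGTCA, were in 16.8% of the 601 and 24.2% of those without a WT carcass peak. The homeobox core TAATTA was also less frequent in the 601, at 7.65% (5.66 to 10.1) against 11.3% (10.9 to 11.8). The 601 had a median of 1.43 CpG per 100 bp and lay a median of 80747 bp from a coding start, against 1.17 and 55985 bp. Their median length was 800 bp against 600 bp.

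CpG density went with the WT share. Of regions with fewer than 1 CpG per 100 bp, 1.23% were under both WT carcasses, against 3.39% at 1 to 2, 5.56% at 2 to 3 and 4.05% at 3 or more. The last class held 321 regions, with a 95% exact interval of 2.17 to 6.83 that covers both of the preceding values.

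Reproducibility between null embryos was read by choosing carcass regions in 1 embryo and reading them in the other. Of the bases of 28163 regions chosen in null carcass i1, and free of its heart and liver and of the null hindbrains, null carcass i5 covered 74.4% and null heart i5 covered 0.733%. On the log2 scale of observed over expected these were 3.22 and -2.40. The 66709 regions chosen in null carcass i5 were free of its heart and of the null hindbrains, but no liver was avoided. Of their bases null carcass i1 covered 44.2%, null heart i1 23.2% and null liver i1 11.3%. On the same log2 scale these were 2.95, 1.43 and 1.81, so the other tissues of embryo i1 were above expectation too. The libraries differ in breadth, with peaks of heart i1 covering 8.59% of the autosomes and those of heart i5 3.87%. No test was made, since each value is from 1 library.

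The regions often lay close to peaks of other tissues. The nearest peak of another null tissue was a median of 1000 bp away, within 1000 bp for 50.6% of the regions and directly adjoining for 2.93%. The nearest other region of the set was a median of 25000 bp away. Of the null carcass stretches left out by the rule, 15523 touched peaks of a single other null library. Null heart i1 was that library for 6217 of them and null hindbrain Z1 for 3377. On chromosome X, which the rule left out, 305 stretches met all its other terms.

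By position the regions were mainly distal. Introns held 46.3% of their bases, exons 3.34% and intergenic sequence 50.4%, against 38.4%, 3.45% and 58.2% of the autosomes in GENCODE vM1. Regions only in null heart had 33.2% of bases intergenic and 7.88% in exons. The promoter, taken as the 1000 bp upstream of a start, held 1.89% of their bases, against 2.27% of the autosomes and 2.86% of shared stretches. CpG islands held 0.338%, against 0.939% of the autosomes and 0.782% of shared stretches. The median distance to a coding start was 57590 bp, against 38212 bp for shared stretches and 31555, 19932 and 44496 bp for regions only in null hindbrain, heart and liver.

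CpG was present in every region, though sparsely. The median was 1.17 CpG per 100 bp (quartiles 0.833 and 1.56), against 0.667 in tiles and 1.5 in shared stretches. Only 0.234% of regions lacked a CpG in the central 300 bp, against 18.5% of tiles. Median GC content was 43.8%, against 41.7% for tiles and 46.2% for shared stretches. Only 171 regions (0.852%) held part of a CpG island.

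The *Hox* clusters, where HOX transcription factors are encoded in the order of the body axis, held few peaks outside null carcass. From 10 kb before to 10 kb after the 4 clusters there were 15 null carcass stretches, and 12 of them were regions only in null carcass. Among all null carcass stretches that share is 14.7%. These clusters were singled out after the counts for the gene lists had been seen. The *Hoxb* cluster held 8 of 10 stretches, *Hoxa* 3 of 4, *Hoxd* 1 of 1 and *Hoxc* 0 of 0. No region only in null hindbrain or only in null heart lay in the clusters, and 1 only in null liver did, at *Hoxd*.

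In the *Hoxb* cluster peaks covered 8800 bp in null carcass i1 and 12100 bp in i5. The null hindbrains covered 0, 0, 0 and 200 bp there, null heart i1 1900 bp, null heart i5 0 bp and null liver i1 1800 bp. In the *Hoxa* cluster null carcasses covered 4800 and 5300 bp and the other null libraries at most 200 bp. WT carcass peaks covered 0 bp of all 4 clusters in both embryos. Of the 12 regions 11 lay under no WT peak, and WT liver i6 covered 400 bp of the other, at a coding exon of *Hoxb3*.

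Within *Hoxb*, 3 regions of 500, 500 and 700 bp followed each other from a coding exon of *Hoxb7* towards *Hoxb6* (chr11:96150601-96152700). *Hoxb3* held 3 regions of 600, 500 and 1200 bp, and the longest of these had 53 CpGs and reached into a CpG island. In *Hoxa*, regions of 1600 and 1100 bp overlapped coding exons annotated to *Hoxa3*, with 61 and 45 CpGs and 539 and 588 bp in CpG islands. These 3 were denser in CpG, at 3.81 to 4.42 per 100 bp, than the median region. The single region at *Hoxd3* was 500 bp long and had 4 CpGs.

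Gene lists for parts of the carcass and for the other tissues describe where the regions lay. At least 1 region was found in the body of 3656 of 21418 protein-coding genes, or 17.1%, and of all null carcass stretches in those bodies 13.1% were regions only in null carcass. Counts rise with gene length, so the share of stretches is the fairer measure. Genes were taken from lists written with earlier results of these data known, and 277 of 285 were matched. A symbol with 2 annotated records was not counted, which left out *Hoxa3* of the hindbrain list, with 2 of 2 stretches in either record, and *Runx2* of the skeletal list, with 5 of 34 in the longer record.

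Somite and muscle genes had regions in 9 of 24, and 22 of their 101 stretches (21.8%) were regions only in null carcass. *Pax3*, which marks muscle precursors and the dorsal neural tube, held 5 of 21 stretches, *Eya1*, a transcriptional co-activator, 5 of 19, and *Met*, the receptor that guides muscle precursors into the limb, 4 of 18. Gut, lung and pancreas genes had regions in 3 of 18 genes, with 29 of 155 stretches (18.7%). *Foxp2*, a forkhead repressor of lung and brain, accounted for 19 of 49 stretches, *Foxp1* for 9 of 87 and *Onecut1* for 1 of 5.

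Skeletal genes had regions in 10 of 23, with 45 of 364 stretches (12.4%), close to the background. *Sox5* held 16 of 153 stretches and *Sox6* 9 of 75. These factors act with SOX9 in cartilage. *Trps1*, a GATA-type repressor of cartilage growth, held 7 of 35, with 1 intronic region of 1200 bp (chr15:50572101-50573300) under 400 bp of WT carcass i6 and 500 bp of i9. Limb bud genes had regions in 8 of 29, with 27 of 216 stretches (12.5%). *Gli3*, the effector and repressor of hedgehog signalling, held 8 of 46, *Zbtb16* 5 of 41 and *Meis2*, a partner of PBX, 5 of 45.

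Facial and neural crest genes had 5 of 31 stretches (16.1%). Urogenital genes had 8 of 82, led by *Gfra1*, a co-receptor of GDNF, with 4 of 40, and with 1 each in *Nr5a1* and *Pax2*. Surface ectoderm genes had 3 of 38, all in *Trp63*, a master gene of stratified epithelium. Spinal cord, forebrain and midbrain genes had 0 of 5. The trunk *Hox* genes held 3 of 3 in their bodies, 2 in *Hoxb7* and 1 in *Hoxd3*.

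Genes of the other dissected tissues also held some of the regions, since the rule left out peaks and not genes. Cardiomyocyte genes had 1 of 80 stretches (1.25%), a region of 600 bp in *Ryr2*, the calcium release channel, and 5 of 111 (4.50%) with 10 kb on either side of the genes. Hepatocyte genes had 2 of 26, in *Cps1* and *Prox1*, and erythroid and blood genes 5 of 50, of which *Runx1* held 3, *Lmo2* 1 and *Spna1* 1. Hindbrain genes had 8 of 43 (18.6%), of which *Lmx1a* held 4 of 19, *Hoxb3* 3 of 5 and *Pax5* 1 of 17, and 16 of 58 (27.6%) with 10 kb on either side. With that flank the share over all protein-coding genes was 12.9%. Genes of cytosine modification had 4 of 46, with 1 region each in *Dnmt3a*, *Dnmt3b* and *Dnmt3l* among the named ones. Peaks of the other null tissues entered the rule, so the low share at cardiomyocyte genes cannot be told apart from the choice of the regions.

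**Figure D5:**
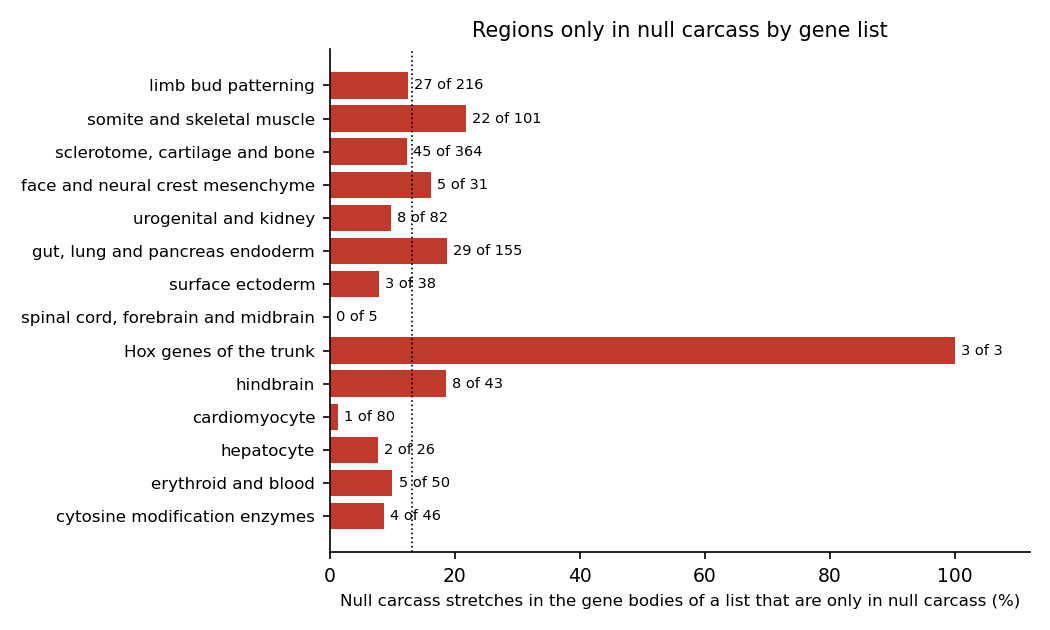
Share of the null carcass stretches in the gene bodies of each list that were regions only in null carcass, in per cent, with the counts beside each bar. The dotted line is the 13.1% of all protein-coding genes. Trunk *Hox* genes stand at 3 of 3 and cardiomyocyte genes at 1 of 80.

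The genes with the most regions were long ones. *Gm20388* and *Fgfr2* had 50 and 42, over annotated bodies of 4435 kb and 3009 kb that span other genes, and these were 8% and 13.5% of their stretches, against 13.1% over all protein-coding genes. *Gpc6*, a glypican of the growth plate, had 37 regions, or 3.51 per 100 kb, and they were 22.2% of its 167 stretches. *Npas3*, a bHLH-PAS factor, had 35, or 4.25 per 100 kb and 23.8% of its stretches. *Dcc*, the netrin receptor, had 30, which was 32.3% of its 93 stretches. *Prkg1*, a cGMP-dependent kinase of smooth muscle, had 27, which was 32.5% of 83. *Auts2*, *Wwox*, *Ptprd* and *Nrxn3* had 29, 28, 27 and 27, which were 13.1%, 16.5%, 27.8% and 22.9% of their stretches. All protein-coding genes together had 0.977 per 100 kb. Of the *Wwox* regions 3 were under both WT carcasses, and of those in *Fgfr2*, *Gpc6*, *Npas3*, *Dcc* and *Prkg1* 2 each. *Gm20388* and *Ptprd* had 1 each, and *Auts2* and *Nrxn3* 0. Over all regions the share under both WT carcasses was 2.996%.

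Windows of 1 Mb held a median of 8 regions where they held any. The densest, chr15:94000001-95000000 with *Tmem117*, *Adamts20* and *Nell2*, held 32 of its 132 null carcass stretches. *Adamts20* encodes a secreted protease needed for melanoblasts. Windows at *Npas3* and *Akap6* (chr12:54000001-55000000) and at *Tmem132d* (chr5:128000001-129000000) held 31 each, of 145 and 95 stretches. The windows were picked for their counts, and the share over all null carcass stretches was 14.7%.

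The longest regions were in or near genes of varied function. The longest, of 3900 bp with 65 CpGs, was in an intron of *Glra1*, a glycine receptor subunit, 2485 bp downstream of its start (chr11:55416801-55420700), and only WT hindbrain Q3 of the WT libraries had a peak there, over 900 bp. A region of 3500 bp lay at *Ass1*, an enzyme of arginine synthesis (chr2:31348501-31352000), and no WT peak met it. *Eya4*, a relative of *Eya1*, held one of 2800 bp (chr10:22881701-22884500), and *Agap1* another of 2800 bp (chr1:91785001-91787800), of which WT hindbrain Q3 covered 800 bp. The region in an exon of *Meg3*, a maternally expressed non-coding RNA, was 2700 bp long (chr12:110797901-110800600), and WT carcass i9 covered 800 bp of it. The other 5 of the 10 longest, at *AU040320*, *Fam168a*, *Otoa* and *Pappa2* and in an intergenic stretch far from *Tle3*, measured 2500 to 2600 bp.

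Among regions under both WT carcasses and no other WT library, the longest was that of 2600 bp in an intron of *AU040320* (chr4:126458201-126460800), with 1100 bp under each WT carcass. The next was 2400 bp in an intron of *Ston1* (chr17:89058401-89060800), with 800 bp under i6 and 1600 bp under i9. One of 2400 bp at *2310028O11Rik* (chr4:138659101-138661500) had 600 bp under each. The remaining pair were intergenic, of 2300 bp (chr1:158714101-158716400) with 1100 and 800 bp, and of 2200 bp (chr4:39997201-39999400) with 700 bp under each. In *Foxp1* an intronic region of 800 bp (chr6:99035401-99036200) had 600 bp under i6 and its whole length under i9.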

How the data were processed

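Positions of 5fC peaks from pull-down sequencing were analysed for 20 libraries. Per the labels and the methods of the study, the authors trimmed reads with Trim Galore, aligned them with Bowtie2 to mouse NCBIM37 (mm9), and called peaks with MACS in SeqMonk for each pull-down on its own (p cutoff 1e-05, fragment size 200 bp). The deposited files give chromosome, start and end on a 100 bp grid, with no height, count or control, so depth is unknown from the files used here. Groups came from the labels.

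Peaks were turned into 100 bp bins. A region set for each null tissue was made by the same rule (both libraries for heart and carcass, at least 2 of 4 for hindbrain, i1 for liver). For each WT library, log2 of observed over expected region bases was computed with 1 bin added to both, expected bases being the region bases times the share of ungapped autosomal bases under peaks. WT carcass (n = 2) and the 8 other WT libraries were compared by two-sided exact permutation over 45 assignments. Binomial intervals are 95% Clopper-Pearson. Annotation was GENCODE vM1 on NCBIM37. CpG islands were windows of 500 bp with at least 55% GC and observed over expected CpG above 0.65. Motifs were searched on both strands in central 300 bp windows. To the 14 motifs 6 were added, which were the forms of the free base, the reversed letters and MEIS. RefSeq synonyms served to match gene names. The repeat-masked share was not computed because the genome used carries no masking. Named regions and genes were the 10 longest regions, the 5 longest under both WT carcasses only, those in named list genes under both WT carcasses, the 10 genes with most regions, up to 3 genes per list and the 3 windows with most regions. Genes of the facial list are not reported here by name. The *Hox* regions and those with most PBX-HOX matches were added after values were seen. The regions and lists were chosen with earlier results of these data known. The rule was tested on simulated peaks. Python 3 with NumPy and SciPy was used. Alternatives are given in the closing section.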

Additional observations from a re-analysis of the deposited data

How the results depend on the processing

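The log2 difference between WT carcass and the other WT libraries at the regions (4.83) kept its sign under every alternative, from 3.82 to 5.30, and the difference relative to the other single-tissue sets (5.40) ran from 4.18 to 6.47. The share of WT peaks with PBX-HOX letters (4.97 points more in carcass) ran from 4.80 to 5.36. With the embryo as replicate block, carcass against heart and liver of the same 2 WT embryos, the values were 4.52, 6.47 and 5.36, each with exact p = 0.111, the smallest that 9 assignments allow. Leaving out 1 library at a time gave 4.39 to 5.15, 4.71 to 5.87 and 4.80 to 5.19. Without either WT carcass the exact p was 0.111, 0.222 and 0.111, where 9 assignments cannot reach 0.05. The first difference passed 0.05 without WT hindbrains 2A8 or Q3 or WT liver i6 (exact p = 0.0278) and missed it without WT hindbrains O3 or Z3, either WT heart or WT liver i9 (exact p = 0.0556). The second missed it (exact p = 0.0556) without WT hindbrains 2A8 or Z3 or either WT heart. Alternatives chosen after seeing the data, a pseudocount of 10 bins (3.82 and 4.66, both exact p = 0.0222) and shared null carcass stretches as the comparison set (4.18, exact p = 0.0444), left both calls in place. Against the shared stretches, which other null tissues touch by definition, both WT carcasses were lower on the regions (-1.44 and -1.36) and the other WT libraries lower still (mean -5.57).

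Where no peak of another null tissue lay closer than 1 kb there were 10547 regions, 395 of them under both WT carcasses, and with either null carcass sufficing there were 53207, of which 1073 were. A peak covering at least 50% of the region in both WT carcasses left 447. PBX-HOX letters were in 13.9% to 17.97% of regions under the 8 alternatives. With 10 kb on either side of gene bodies, trunk *Hox* genes with a region rose from 2 to 8 of 28. Hindbrain genes rose from 3 to 9 of 21 and cardiomyocyte genes from 1 to 5 of 21, against 24.3% of all protein-coding genes. Spinal cord, forebrain and midbrain genes stayed at 0 of 19, but held only 12 null carcass stretches with that flank. The share of stretches went from 7.69% to 12.8% for hepatocyte genes, where all protein-coding genes had 12.9%. With 2 WT carcasses, small differences between tissues could not be detected, and values of the WT libraries with 1507 to 1740 peaks rest on few peaks.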
